A study of Homo sapiens with 9 samples.

Results

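The control libraries of 2 human esophageal squamous cell carcinoma lines, TE11 and Kyse150, were compared gene by gene to describe how the lines differ before any knockdown. Members are the 5 libraries titled as shNC controls, 3 of TE11 and 2 of Kyse150, of 9 libraries in the series, and the 20809 genes of 66338 listed in either table that have an Ensembl identifier in both tables, at least 1 count in each table, and no place on the mitochondrial genome. The series was made to look for genes that respond to loss of KDM2A, a histone demethylase. Its other 4 libraries are titled as carrying an shRNA against KDM2A. All 5 control libraries have shNC in their titles and the genotype label Control. The design text says that the KDM2A shRNA was delivered with lentivirus and does not describe what the controls received. Both lines were kept in RPMI 1640 medium with fetal bovine serum, RNA was taken with Trizol, and polyadenylated RNA was sequenced as paired ends. The labels speak of 3 independent replicates without saying what was repeated, and Kyse150 has 2 control libraries here. The p-values thus reflect how far libraries of one line scatter, and that scatter could be technical only. Each line is 1 cell line, so nothing here describes esophageal carcinoma in general.

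Stratified squamous epithelium is built from a basal layer that expresses the transcription factor p63 and keratins 5 and 14, and from upper layers that switch to keratins 4 and 13 and to cornified envelope proteins. Squamous carcinomas of the esophagus usually keep p63 and often SOX2, and frequently carry an active NRF2 pathway, gain of the CCND1 region on chromosome 11 and loss of the CDKN2A region on chromosome 9. Lines from different tumours differ in how far each of these programs is kept, in their interferon and inflammatory tone, and in gene copy number.

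The depth was 7167055 and 7036676 counts assigned to genes for Kyse150 and 11421204, 11581718 and 12073098 for TE11. Libraries of the same group had correlations of log2(CPM + 1) across tested protein-coding genes of 0.994 to 0.995, and a TE11 control against a Kyse150 control had 0.772 to 0.786; CPM is a gene's share of the counts in a library, scaled by edgeR's TMM factors and given per 1e+06. The labels need care on 1 point. The 2 libraries labelled TE11 knockdown, which lie in the same table as the TE11 controls, had a correlation of 0.815 to 0.816 with the TE11 controls and of 0.939 to 0.944 with the Kyse150 controls, so they stood closer to the other line than to the controls of their own label. Which TE11 label matches the named line cannot be told from these files, and "TE11 controls" below means the 3 libraries so labelled. Each line has its own table with its own annotation, so line and table cannot be told apart by the 5 controls. The libraries labelled TE11 knockdown share the TE11 table, and their levels are given beside genes where they bear on this.

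Most genes differed between the lines. Of 15225 genes tested with edgeR's quasi-likelihood test (Benjamini-Hochberg adjusted p under 0.05), 11939 were called, which is 78.4%, and the lists below are read against these shares. Higher in TE11 controls were 6263 genes (41.1%) and lower 5676 (37.3%). A second rule that also asked for a difference of at least 4-fold called 1815 genes higher (11.9%) and 910 lower (5.98%). The median size of the log2 difference over all tested genes was 0.84 and its median 0.06, so a call by itself says little about a gene, and counts at 4-fold are given for most lists. A gene near 0 in 1 line passes the filter on low counts only through the other line, and had to differ to be tested at all. With 10 or more counts required in each of the 5 libraries, the 4-fold counts were 609 higher and 391 lower. The plot of mean levels shows that the excess of large differences on the TE11 side comes with many genes at the floor of Kyse150. In bulk RNA, fewer cells that express a gene and less RNA per cell cannot be told apart.

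**Figure D1:**
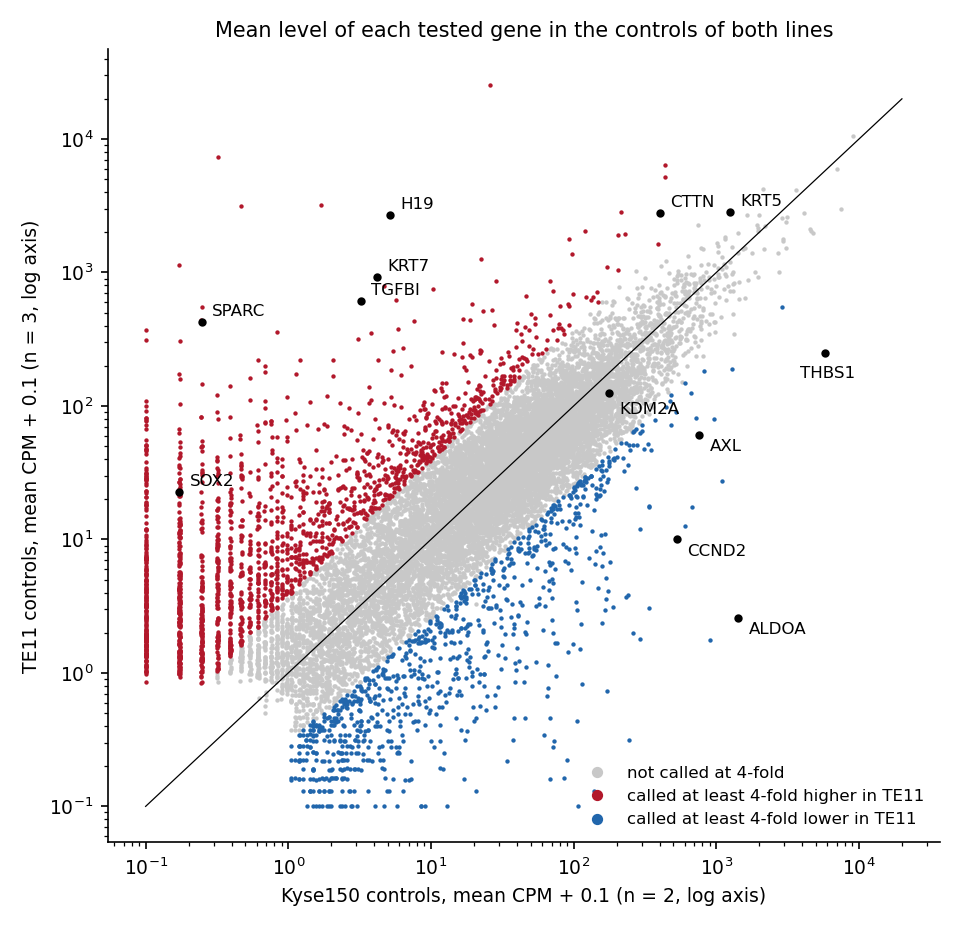
Mean CPM plus 0.1 of each tested gene in the 2 Kyse150 controls (x axis) and the 3 TE11 controls (y axis), both on log axes, with the line of equal level. Red points are the genes called at least 4-fold higher in TE11 and blue points those at least 4-fold lower. KRT7, TGFBI, SPARC and H19 lie far above the line and THBS1, AXL, CCND2 and ALDOA far below it, while KDM2A lies close to it.

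The difference between lines also moved with base composition. Among tested protein-coding genes, the fifth with the lowest GC content (30.9% to 40.9%) had a median log2 difference of 0.68 and the fifth with the highest (58.5% to 75.8%) a median of -0.37. The 2 libraries labelled TE11 knockdown minus the Kyse150 controls gave 0.56 and -0.46 in the same 2 bins, on log2(CPM + 1). The TE11 controls minus the libraries of the same table gave 0.07 and 0.15. The part of base composition in single genes was not tested, but each gene was also fitted with the trend of its library on GC content removed, and that value is given beside those of the list medians and counts of called members given here that it moved by more than 1.5 times. Over all genes tested the median was then 0.03.

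KDM2A, which removes methyl groups from lysine 36 of histone H3, was lower in TE11 controls. It lies on the forward strand of chromosome 11 at chr11:67119269-67258087 (GRCh38, GENCODE 29). Its level was 175 and 179 CPM in Kyse150 and 126, 123 and 126 in TE11, without overlap. The libraries labelled TE11 knockdown, whose label says that the gene was targeted, held 133 and 147 CPM. Those labelled Kyse150 knockdown held 108 and 105. No library labelled TE11 knockdown was thus below the TE11 controls, while both were below the Kyse150 controls. In KDM2A these libraries lay nearer the TE11 controls, although across genes they stood closer to the Kyse150 controls. Between the controls the log2 difference was -0.50, SE 0.07 (edgeR adjusted p = 6.88e-09), and -0.26 with the GC trend removed. Of the 24 JmjC demethylases listed, 22 were tested, 8 were called higher and 10 lower, with a median of -0.19 (-0.08 without the GC trend). 2 of them passed 4-fold, both higher in TE11. KDM5B, an eraser of lysine 4 methylation, stood at 15.1 and 17.9 CPM in Kyse150 and 226, 233 and 235 in TE11, a log2 difference of 3.81, SE 0.11. KDM3A, which acts on lysine 9, was at 14.1 and 17 against 75.2, 78.7 and 81.2 CPM, a log2 difference of 2.33, SE 0.12. Both were at the Kyse150 level in the libraries labelled TE11 knockdown, with 19 and 19.2 CPM for KDM5B and 14 and 13.8 for KDM3A.

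Other chromatin genes went both ways. Of 22 tested genes for methyltransferases and readers of H3K36, 10 were called higher and 10 lower. SETD2, the main trimethylase, had a log2 difference of -0.29, SE 0.09, the de novo DNA methyltransferase DNMT3B was higher (2.01, SE 0.10) and PHF19, a polycomb cofactor that reads methylated H3K36, was lower (-2.25, SE 0.09). Among 27 polycomb genes 9 were called higher and 9 lower, none by 4-fold, and the median was 0.07, or -0.22 without the GC trend.

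Both lines expressed basal squamous markers. Of the 10 genes taken as markers of basal squamous epithelium all were tested, 7 were called higher in TE11 and 2 lower. TP63, which encodes the master factor of squamous epithelium, stood at 110.3 and 100.3 CPM in Kyse150 and 230.03, 234 and 241 in TE11 (log2 difference 1.16, SE 0.08). KRT5, the basal keratin, stood at 1233 and 1271 CPM in Kyse150 against 3009.6, 2627 and 2848 in TE11, and levels set against each other are given in this order throughout (log2 difference 1.18, SE 0.06). The ranges of the lines did not overlap for either gene. KRT14, the usual partner of KRT5, was low in both lines at 16.7 and 17.9 against 24.1, 18.3 and 19.4 CPM, and its log2 difference of 0.25, SE 0.14 did not pass the test (edgeR adjusted p = 0.1), though it did without the GC trend (0.57). KRT17, a keratin of activated basal cells, held 19.4 and 24.9 CPM in Kyse150 and 1304, 1225 and 1244 in TE11 (log2 difference 5.83, SE 0.10), so the lines were far apart in it. KRT6A, also an activation keratin, was higher in TE11 at a low level (1.81, SE 0.21), as were the desmosomal cadherin DSG3 (1.68, SE 0.10) and TRIM29 (0.64, SE 0.08). ITGB4, the hemidesmosome integrin, was lower (-0.80, SE 0.06), and PKP1, a desmosome plaque protein, stood at 84.2 and 85.2 CPM in Kyse150 and 9.8, 7.54 and 9.95 in TE11, a log2 difference of -3.22, SE 0.12.

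SOX2, a lineage factor, was at or near 0 in Kyse150. It had 1 count over the Kyse150 controls and 22.3, 21.3 and 23.6 CPM in the TE11 controls, a ratio of 306, 95% interval 54.8 to 12119.6. The libraries labelled TE11 knockdown were at 0 and 0.117 CPM. Counting intervals cover counting error only, since reads without molecular identifiers are not independent molecules.

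Squamous and epithelial transcription factors were mostly higher in TE11. Of 22 tested of 24 listed, 15 were called higher and 6 lower, 9 by at least 4-fold higher and 1 lower, with a median log2 difference of 1.33 against 0.06 over all genes tested. EHF, an ETS factor of epithelia, stood at 0.288 and 0.745 CPM in Kyse150 and 62.4, 67.5 and 65.4 in TE11 (log2 difference 6.95, SE 0.53). ELF3, a second ETS factor of epithelial differentiation, stood at 21.6 and 22.1 against 279, 260.2 and 253 CPM (3.6, SE 0.10). No library of one line reached the range of the other for these 2 genes. GRHL3, which acts in the upper layers of the epidermis, had 1 count over the Kyse150 controls against 9.43, 8.73 and 6.78 CPM (ratio 113, 95% interval 20.1 to 4487). SOX15 was the member that differed 4-fold the other way, with 195 and 194 CPM in Kyse150 and 54.8, 44.3 and 44.3 in TE11 (log2 difference -2.02, SE 0.08, and -1.69 without the GC trend).

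Basal genes split more evenly. Of 23 tested of 25 listed, 14 were called higher in TE11 and 7 lower, 5 and 2 of them by at least 4-fold, with a median of 0.69. KRT15, a keratin of basal and progenitor cells, stood at 27 and 29.95 CPM in Kyse150 and 915, 809.9 and 869 in TE11 (4.92, SE 0.09). NGFR, the neurotrophin receptor of esophageal basal cells, stood at 3.17 and 4.17 against 115, 111 and 105 CPM (4.91, SE 0.21). Lower in TE11 by 4-fold were PTHLH, which encodes the parathyroid hormone-related protein (-2.24, SE 0.11), and the basal zinc finger factor BNC1 (-2.1, SE 0.09).

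The differentiation program was fragmentary in both lines. Of 42 listed genes 18 were tested, 9 were called higher in TE11 and 7 lower, 4 and 3 of them by at least 4-fold, and IVL, the classical envelope protein involucrin, had no count in Kyse150 and 0.0881 to 1.20 CPM in TE11. The keratins of the suprabasal esophagus were near 0 in Kyse150: KRT13 stood at 0.575 and 0.596 CPM in Kyse150 and 199, 164 and 172 in TE11 (8.22, SE 0.51), and KRT4 at 0 and 18.5, 15.9 and 16.9 CPM, at least 77.8-fold higher against 3 counts over the Kyse150 controls. CSTA, a cystatin of the envelope, was higher as well (3.45, SE 0.14, and 2.74 without the GC trend). Lower in TE11 were ECM1 (-3.57, SE 0.33), the filaggrin gene FLG (-2.23, SE 0.12) and KRT80 (-2.02, SE 0.08), and 1 of these 3 remained at 4-fold without the GC trend.

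Simple-epithelial keratins diverged in opposite directions. KRT7 stood at 4.17 and 4.02 CPM in Kyse150 and 944, 888 and 926 in TE11, a log2 difference of 7.8, SE 0.18 (edgeR adjusted p = 5.16e-66), the largest among protein-coding genes called higher in TE11 with 10 or more counts in each of the 5 libraries. KRT19 had 1 count in Kyse150 and 15, 14.8 and 13.6 CPM in TE11 (ratio 198, 95% interval 35.3 to 7829). KRT8 and KRT18, which pair with each other, were abundant in both lines and lower in TE11: KRT8 stood at 4694 and 4806 against 2158, 1876 and 1941 CPM (-1.25, SE 0.06), and KRT18 at 1850.2 and 1873 against 1059, 975.02 and 978 CPM (-0.89, SE 0.06). The libraries labelled TE11 knockdown were at 7.48 and 5.62 CPM of KRT7, within a few CPM of Kyse150. In the plot of 34 genes by library, which were chosen after their values were seen, the lines do not overlap in any of the 34, although the gap is small for KRT14.

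**Figure D2:**
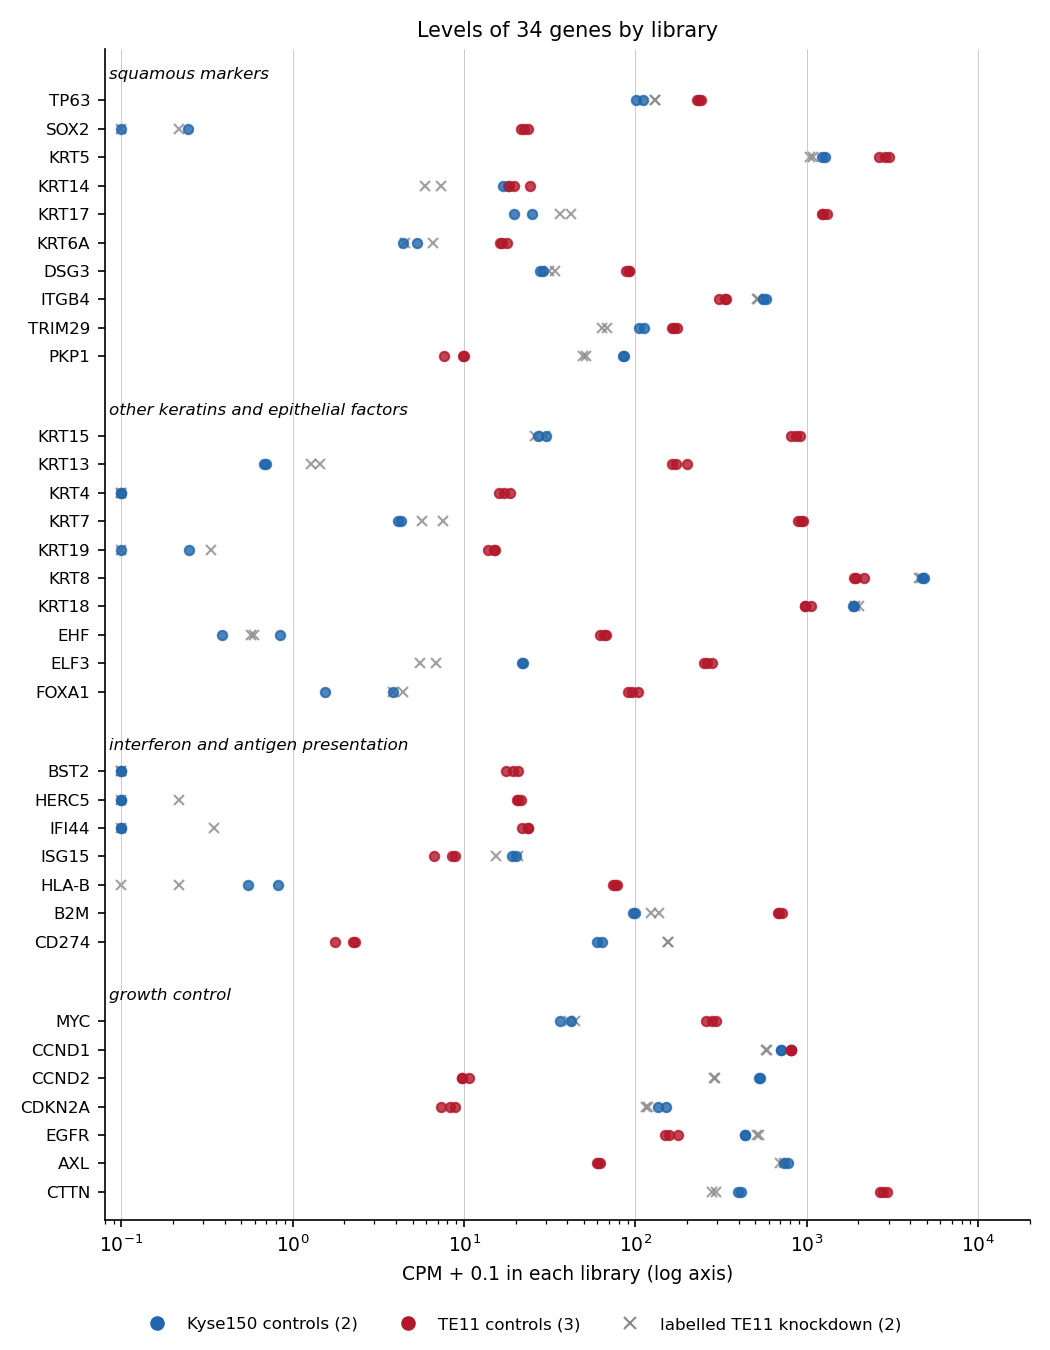
CPM plus 0.1 (log axis) of 34 genes in each of the 2 Kyse150 controls (blue), 3 TE11 controls (red) and 2 libraries labelled TE11 knockdown (grey crosses), 1 row per gene and 1 mark per library. The lines lie closest for KRT14, KRT7 and KRT17 show wide gaps, and the grey crosses lie near the blue points for most genes.

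Cell junction genes did not move together. Of 11 desmosome genes tested, 8 were called higher in TE11 and 3 lower, with a median of 0.29, and the 3 lower ones were the plakophilins PKP1 (-3.22), PKP2 (-1.44) and PKP3 (-1.48). Of 21 tight junction genes, 9 were called higher and 9 lower, 2 in each direction by at least 4-fold, with a median of -0.01 (0.02 without the GC trend). TJP3 was higher (3.6, SE 0.15) and CLDN15, a claudin, was lower (-2.95, SE 0.25).

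Markers of other cell types were mostly at 0 or at low levels. Of 30 columnar and intestinal markers 8 were at 0 in all 5 libraries and 5 were tested, and their summed level ran from 21 to 23.7 CPM in Kyse150 and from 183 to 194 in TE11. The highest of these in TE11 was FOXA1, a pioneer factor of glandular epithelia, at 95.1, 104 and 90.6 CPM against 1.44 and 3.73 in Kyse150 (5.23, SE 0.26), and GATA6 (2.49, SE 0.18) and the mucin MUC1 (4.02, SE 0.35) were higher as well. These markers' part in other results was not tested. Fibroblast markers summed to 49.3 to 50.4 CPM in Kyse150 and 272 to 292 in TE11, mostly FBLN1 (204, 193 and 188 CPM in TE11). Endothelial markers summed to 16.5 to 21.5 and 73 to 82.7 CPM, mostly EGFL7. Leukocyte markers summed to at most 5.11 CPM, and PTPRC, which marks all leukocytes, was at 0 in all 5 libraries. Neural markers summed to 31.9 to 32.8 and 42.7 to 48.6 CPM. Of the 3 neural markers tested, 1 was called higher in TE11 and 2 lower. Both lower ones passed 4-fold, though not without the GC trend.

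Interferon-stimulated genes were mostly higher in TE11. Interferons act through transcription factors that bind a promoter element that holds 2 copies of GAAA, and the genes it drives restrict viruses. Of 43 listed genes 37 were tested, 25 were called higher in TE11 and 3 lower, and 18 were at least 4-fold higher with none 4-fold lower. The median log2 difference was 1.9, against 0.06 over all genes. 6 members had no count in the Kyse150 controls: IFI44 was at 21.8, 23.6 and 23.4 CPM in TE11 (at least 104-fold higher), SAMD9L at 17.2, 23.4 and 21.8 (at least 95-fold), HERC5 at 20.3, 21.3 and 20.4 (at least 94.1-fold), BST2 at 20.5, 19.2 and 17.4 (at least 86.7-fold), DHX58 at least 53.1-fold and TRIM22 at least 47-fold higher. BST2 tethers budding virus, HERC5 is the ligase for ISG15, and DHX58 is a helicase of the RIG-I family. The 6 are among the 18, but they passed the filter on low counts only through TE11 and had to differ to be tested. None of the 6 was above 0.245 CPM in a library labelled TE11 knockdown. ISG15 itself went the other way, with 19 and 20.1 CPM in Kyse150 and 8.4, 8.73 and 6.6 in TE11 (-1.31, SE 0.16), and 9 members did not pass the test, among them IFIT1 (0.23), OAS3 (-0.03) and USP18 (0.16). Without the GC trend OAS3 (0.26) and USP18 (0.40) were called higher.

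To show what the promoters of these genes share and do not share, the interferon-response letters, GAAA and GAAA with NN between them (N is any base), were searched on both strands in the 250 bases before each start site (RefSeq, GRCh38.p14). They are found in 3.07% of all 27195 promoters in the table and in 2.26% of those of 9814 tested protein-coding genes. The table holds 28 of the 37 tested members, under the 80% needed to give a share for the list. Of the genes at 0 in Kyse150, BST2 holds 2 overlapping matches, HERC5 3 and IFI44 1. IFI6, which was higher in TE11 (5.62), holds 3, and ISG15, which was lower, holds 2 overlapping matches. SAMD9L and OAS1 (7.09) were higher in TE11 and have no match in this window. The 5 promoters follow in the direction of transcription, 5′ to 3′, with the matches in capitals on either strand: BST2 at chr19:17405631-17405880 (reverse strand), HERC5 at chr4:88456869-88457118 (forward), IFI6 at chr1:27672193-27672442 (reverse), IFI44 at chr1:78649539-78649788 (forward) and ISG15 at chr1:1013247-1013496 (forward).
BST2: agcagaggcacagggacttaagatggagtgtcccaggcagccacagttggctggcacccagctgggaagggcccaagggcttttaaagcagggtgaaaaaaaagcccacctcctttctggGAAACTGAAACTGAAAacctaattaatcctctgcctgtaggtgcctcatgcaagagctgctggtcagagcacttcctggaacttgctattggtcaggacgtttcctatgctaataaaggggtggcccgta
HERC5: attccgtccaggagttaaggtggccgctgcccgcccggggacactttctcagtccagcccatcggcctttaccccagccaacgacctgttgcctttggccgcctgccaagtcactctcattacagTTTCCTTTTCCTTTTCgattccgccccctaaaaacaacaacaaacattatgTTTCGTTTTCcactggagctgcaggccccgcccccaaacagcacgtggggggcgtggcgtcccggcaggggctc
IFI6: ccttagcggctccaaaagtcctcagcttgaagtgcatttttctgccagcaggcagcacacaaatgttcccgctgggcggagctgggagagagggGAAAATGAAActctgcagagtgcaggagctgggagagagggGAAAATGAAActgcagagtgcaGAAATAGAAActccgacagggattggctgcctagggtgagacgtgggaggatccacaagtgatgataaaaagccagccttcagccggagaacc
IFI44: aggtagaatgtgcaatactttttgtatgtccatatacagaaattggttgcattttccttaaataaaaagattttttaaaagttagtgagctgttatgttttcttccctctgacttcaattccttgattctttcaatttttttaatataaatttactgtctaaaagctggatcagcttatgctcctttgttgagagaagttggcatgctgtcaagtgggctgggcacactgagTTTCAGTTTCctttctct
ISG15: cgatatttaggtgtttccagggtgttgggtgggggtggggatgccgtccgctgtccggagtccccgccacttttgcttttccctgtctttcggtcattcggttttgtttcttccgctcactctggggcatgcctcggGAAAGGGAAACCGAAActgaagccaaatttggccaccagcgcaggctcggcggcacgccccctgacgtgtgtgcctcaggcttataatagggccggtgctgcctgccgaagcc
A match describes the letters and says nothing of binding, and genes with a match lie on both sides of the comparison.

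MHC class I genes, which display peptides to T cells, were mostly higher too. Of 20 MHC class I genes 19 were tested, 13 were called higher in TE11 and 4 lower, 6 and 1 of them by at least 4-fold, with a median of 1.67. HLA-B stood at 0.719 and 0.447 CPM in Kyse150 and 74.3, 77.8 and 75.8 in TE11 (6.99, SE 0.50). B2M, the shared light chain, stood at 97 and 99.7 against 690.5, 714 and 682 CPM (2.82, SE 0.07). The lines did not overlap in either gene. The 3 inducible proteasome subunits PSMB8 (4.54, SE 0.20), PSMB9 (5.44, SE 0.32) and PSMB10 (3.15, SE 0.33) and the peptide trimmer ERAP2 (5.73, SE 0.20) were higher as well. CD274, which encodes the checkpoint ligand PD-L1, was the member at least 4-fold lower, at 63.3 and 59.5 CPM in Kyse150 and 2.15, 2.21 and 1.67 in TE11 (-4.93, SE 0.20). HLA genes share sequence and their alleles differ from the reference, so their counts are uncertain.

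All 27 tested inflammatory and NF-kB genes were called, 22 higher in TE11 and 5 lower, 10 and 2 of them by at least 4-fold, with a median of 1.78 (1.26 without the GC trend). LCN2, a siderophore-binding protein of inflamed epithelia, had 3 counts over the Kyse150 controls and 79.9, 80.1 and 79.95 CPM in TE11 (ratio 364, 95% interval 124 to 1767). Among cytokines, CXCL8 stood at 1.01 and 1.34 against 19.5, 23 and 20.6 CPM (4.15, SE 0.37) and IL1B at 4.75 and 5.07 against 38, 41 and 41.4 CPM (3.03, SE 0.19), while the IL6-family members IL6 (-3.63, SE 0.48) and IL11 (-4.66, SE 0.44) were lower in TE11. BIRC3, a target and brake of NF-kB signalling, stood at 3.88 and 2.38 against 59.5, 59.9 and 64.1 CPM (4.28, SE 0.23). The IL6-family member LIF was lower too (-1.66, SE 0.11), so CXCL8 and the 3 IL6-family genes lay on opposite sides.

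Epithelial serine proteases and their inhibitors were also high in TE11. Of 34 listed 22 were tested, 15 were called higher and 5 lower (3 lower without the GC trend), and 11 were at least 4-fold higher. Their median was 1.89, or 1.77 with genes at 0 in Kyse150 set to their bound. SERPINB4, a squamous cell carcinoma antigen, was at 0 in Kyse150 and 99.4, 117 and 110.2 CPM in TE11 (at least 496-fold higher). PRSS8 stood at 2.3 and 2.68 against 70.1, 67 and 66.7 CPM (4.76, SE 0.25) and SERPINB13 at 4.03 and 3.13 against 94.5, 112 and 107 CPM (4.86, SE 0.22). KLK5, a kallikrein of the desquamating layer, was lower in TE11 (-2.43, SE 0.09). Among 12 tested S100 genes 8 were called higher and 3 lower, with a median of 0.30 (0.59 without the GC trend). Without that trend 1 remained called lower. At least 4-fold higher were 4: S100P (ratio 182, 95% interval 50.4 to 1509), S100A4 (4.42, SE 0.62), S100A6 (2.81, SE 0.09) and S100A14 (2.37, SE 0.08).

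The NRF2 pathway was higher in TE11 across most of its members. NRF2, encoded by NFE2L2, drives genes of glutathione, NADPH and xenobiotic metabolism, and KEAP1 targets it for destruction. Of 45 listed genes 41 were tested, 32 were called higher and 4 lower, 13 at least 4-fold higher and none 4-fold lower, with a median of 1.19. NFE2L2 stood at 78.3 and 80.5 CPM in Kyse150 and 217, 238 and 224 in TE11 (1.51, SE 0.08), and KEAP1 at 118 and 113 against 42.6, 33.6 and 33.4 CPM (-1.67, SE 0.09). The lines did not overlap for the factor or for its inhibitor. GPX2, a glutathione peroxidase of epithelia, stood at 0.719 and 0.298 against 230.2, 212 and 215 CPM (8.7, SE 0.53). AKR1B10, an aldo-keto reductase, stood at 0.288 and 0.894 against 196, 204 and 195 CPM (8.37, SE 0.50). ALDH3A1, an aldehyde dehydrogenase, was at 0 in Kyse150 and 402, 355 and 361 CPM in TE11, at least 1696-fold higher. The exporter ABCC2 was at 3.6 and 3.58 against 142, 141 and 133 CPM (5.27, SE 0.21). Enzymes expressed in both lines differed less: NQO1 had a log2 difference of 0.37, SE 0.06, GCLM of 0.93, SE 0.08 and TXNRD1 of 1.14, SE 0.06, and HMOX1, which NRF2 shares with other regulators, did not pass the test (0.34, SE 0.19; edgeR adjusted p = 0.0881) except without the GC trend (0.64) or with 10 or more counts required in each library (0.39). AKR1C1 and AKR1C2, also NRF2 targets, were at 0 in every Kyse150 library and so fall outside the joined genes. In TE11, AKR1C1 stood at 358, 377 and 342 CPM and AKR1C2 at 868, 872 and 819.6.

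Sterol and fatty acid synthesis genes were mostly higher in TE11. Of 33 listed 30 were tested, 20 were called higher in TE11 and 4 lower, 6 and 1 of them by at least 4-fold, with a median of 0.99. HMGCS1, which makes the precursor of mevalonate, stood at 96.2 and 88.7 CPM in Kyse150 and 1656, 1919.98 and 1796 in TE11 (4.27, SE 0.07). SQLE, which commits squalene to sterols, stood at 51.5 and 49.5 against 482, 511 and 465 CPM (3.27, SE 0.08), and the desaturase SCD at 388 and 393 against 1598, 1646 and 1624 CPM (2.06, SE 0.06). EBP, an isomerase of the same route, was lower (-2.89, SE 0.10), and it was also low in the libraries labelled TE11 knockdown (21.2 and 24.5 CPM). SREBF2, the transcriptional driver of the pathway, was higher (1.58, SE 0.07), and SREBF1 did not pass (0.14, SE 0.07; edgeR adjusted p = 0.0631), but was called higher without the GC trend (0.50).

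Hypoxia and glycolysis genes went both ways: of 35 tested, 18 were called higher and 14 lower, 7 and 4 of them by at least 4-fold, with a median of 0.23 (0.15 without the GC trend). EGLN3, a hydroxylase induced by hypoxia, was at 0 in Kyse150 and 81.4, 77.8 and 73.3 CPM in TE11 (at least 353-fold higher), NDRG1 stood at 37.5 and 42.6 against 431, 418 and 405 CPM (3.38, SE 0.09), and CA9 at 8.2 and 7.0 against 43.3, 43 and 44 CPM (2.51, SE 0.16). HIF1A was higher (2.66, SE 0.07, 1.98 without the GC trend). The glucose transporter SLC2A3 (-3.77, SE 0.18) and the peptide gene ADM (-2.85, SE 0.10) were lower. ALDOA and LDHB, core glycolytic enzymes, had the largest negative differences of the list and are among those counted as 4-fold lower. Both were also at a few CPM or less in the libraries labelled TE11 knockdown, and are described with the tables further on. Metallothioneins bind zinc and copper, and 3 of them were tested together with their regulator MTF1. All 4 were called lower, 3 of them also without the GC trend, and MT1E fell by most (154 and 157 CPM in Kyse150, 9.43, 11.8 and 10.9 in TE11; -3.86, SE 0.11).

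Receptor signalling genes differed by gene rather than by family. Of 13 tested ERBB genes 8 were called higher in TE11 and 4 lower, 5 and 1 of them by at least 4-fold. EGFR stood at 436 and 436 CPM in Kyse150 and 148, 157 and 176 in TE11 (-1.44, SE 0.07), and its ligand TGFA at 113 and 121 against 20.3, 21.8 and 21 CPM (-2.48, SE 0.10). Other ligands lay on the TE11 side: EREG had 1 count over the Kyse150 controls and 11.9, 14.9 and 13.8 CPM in TE11 (ratio 185, 95% interval 33.1 to 7337), BTC 1 count (ratio 73.4, 95% interval 13 to 2915), EPGN 1 count (ratio 72.2, 95% interval 12.8 to 2866) and EGF 0 (at least 13.7-fold higher). ERBB2 did not pass the test (-0.07, SE 0.08; edgeR adjusted p = 0.41), and without the GC trend it was called higher (0.23). AREG was higher in TE11 as well (1.6, SE 0.30), and NRG1 (-1.07, SE 0.09) and HBEGF (-0.82, SE 0.25) were lower, so the ligands of this family lay on both sides.

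Of 27 other receptor tyrosine kinases tested, 15 were called higher and 10 lower, 9 and 2 of them by at least 4-fold, with a median of 1.24. AXL, a receptor of invasive and drug-tolerant cells, stood at 740.3 and 779.96 CPM in Kyse150 and 61.9, 59.9 and 60.6 in TE11 (-3.64, SE 0.07). ROR1, a receptor for WNT5A, stood at 11.8 and 11 against 0.373, 0.552 and 0.969 CPM (-4.14, SE 0.38). FGFR1 stood at 0.144 and 0.894 against 7.0, 6.62 and 8.45 CPM (3.81, SE 0.60) and FGFR3 at 20.1 and 16.7 against 97.8, 85.3 and 87.3 CPM (2.29, SE 0.12), while MET differed little (0.51, SE 0.07). The lines did not overlap in AXL, ROR1, FGFR1 or FGFR3. NTRK2, ALK, RET, PDGFRB, EPHA4 and EPHB6, the 6 members with the largest log2 difference, had at most 2 counts over the Kyse150 controls and 1.32 to 15.1 CPM in TE11.

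Regulators of the G1 phase were mostly lower in TE11. Of 23 tested 14 were called lower and 7 higher, 5 at least 4-fold lower and 1 higher, with a median of -0.55. CCND2 stood at 533 and 526 CPM in Kyse150 and 10.5, 9.56 and 9.6 in TE11 (-5.74, SE 0.10), while CCND1, the cyclin most often gained in this cancer, stood at 709.6 and 705 against 808, 813 and 809 CPM (0.20, SE 0.06), a small difference whose call was lost with library totals as the only scaling (0.12; edgeR adjusted p = 0.052). CDKN2A, which encodes p16 and ARF, stood at 136 and 149.8 against 8.22, 7.26 and 8.81 CPM (-4.14, SE 0.12), and its neighbour CDKN2B at 12.8 and 14.2 against 0.653, 0.46 and 0.881 CPM (-4.31, SE 0.37). CDKN2C was lower as well (-3.24, SE 0.19). MYC went the other way, at 41.9 and 36.2 against 296, 259 and 280.01 CPM (2.83, SE 0.09). The libraries labelled TE11 knockdown were at 291 and 287 CPM of CCND2, 119 and 114 of CDKN2A and 44.4 and 40.6 of MYC.

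Genes of the chromosome 11 region around CCND1 were examined together. Of 22 listed 16 were tested, 12 were called higher in TE11 and 2 lower, 5 and 1 of them by at least 4-fold, with a median of 0.59 (0.90 without the GC trend). CTTN, which encodes the actin-binding protein cortactin (chr11:70398404-70436584, forward strand), stood at 397 and 410.2 CPM in Kyse150 and 2943, 2668 and 2792 in TE11 (2.8, SE 0.06). PPFIA1, its neighbour, stood at 139 and 134 against 684, 643 and 646 CPM (2.27, SE 0.07), and NADSYN1, an enzyme of NAD synthesis further along the arm, at 44.3 and 48 against 696, 647 and 642 CPM (3.84, SE 0.08). CPT1A, the gate of mitochondrial fatty acid oxidation, was at 37 and 41.3 against 377, 364 and 369 CPM (3.24, SE 0.09). The lines did not overlap in these 4 genes. SHANK2, which lies between CTTN and NADSYN1, was lower (22.2 and 25.5 against 1.12, 1.01 and 1.58 CPM; -4.24, SE 0.27), CCND1 and FADD (1.36, SE 0.08) differed less, and LRP5 had a log2 difference of -0.34, SE 0.08 that became 0.02 without the GC trend. DHCR7, next to NADSYN1, is a sterol enzyme that was at 0 in every Kyse150 library and at 2735, 2478 and 2555 CPM in TE11, and falls outside the joined genes. Copy number was not measured.

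Of 7 tested genes around CDKN2A on chromosome 9, 3 were called higher and 4 lower, with a median of -0.37 (-1.0 without the GC trend). MTAP, the neighbour of CDKN2A that is often lost with it, had a log2 difference of 0.51, SE 0.10, in contrast to CDKN2A and CDKN2B, but this turned to -0.0092 (edgeR adjusted p = 0.92) without the GC trend. Of 19 tested genes near SOX2 and TP63 on chromosome 3, 13 were called higher and 3 lower (5 lower without the GC trend), with a median of 1.16 that fell to 0.50 without the GC trend. PIK3CA (1.27, SE 0.13) and PRKCI (1.16, SE 0.09) were higher, MECOM did not pass (-0.22, SE 0.14; edgeR adjusted p = 0.166), though it was called lower without the GC trend (-0.42) or without TE11 control replicate 2 (-0.34), and PARL was lower, at 90.2 and 93.6 CPM in Kyse150 and 1.4, 1.84 and 0.792 in TE11, but also at 3.56 and 4.33 CPM in the libraries labelled TE11 knockdown.

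Genes of the TGF-beta and BMP pathways were mostly higher in TE11. BMP ligands signal through SMAD1, SMAD5 and SMAD9 to the ID genes, which block basic helix-loop-helix factors. Of 38 TGF-beta and BMP genes 34 were tested, 21 were called higher in TE11 and 9 lower, 15 at least 4-fold higher and 4 lower, with a median of 1.2. Among targets, ID1 stood at 8.78 and 11.8 CPM in Kyse150 and 792, 743 and 716 in TE11 (6.19, SE 0.13), ID3 was higher (3.0, SE 0.09), ID2 had 3 counts in Kyse150 (ratio 60.7, 95% interval 20.6 to 295) and ID4 none (at least 142-fold higher). Among ligands, BMP7 was higher (2.43, SE 0.15), BMP2 had 3 counts over the Kyse150 controls against 8.87, 8.27 and 10.04 CPM (ratio 41.3, 95% interval 14 to 202), and BMP4 had 1 count against 3.08, 2.57 and 1.76 CPM (ratio 33.6, 95% interval 5.86 to 1343). The TGF-beta ligands lay on the other side: TGFB1 stood at 228 and 243 against 94.5, 84.9 and 91.3 CPM (-1.38, SE 0.07), TGFB2 at 105 and 100.4 against 23.5, 19.9 and 19.5 CPM (-2.29, SE 0.10), and INHBA, the activin subunit, was lower (-3.06, SE 0.37). TGFB3 was lower at a low level (-2.05, SE 0.62), a call that was lost without Kyse150 control replicate 1 (-1.38; edgeR adjusted p = 0.186). BMP2, BMP4, BMP7 and the 4 ID genes were thus higher in TE11, and the 3 TGF-beta ligands lower.

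Notch and Wnt genes were mixed. Of 18 tested Notch genes 10 were called higher and 5 lower (3 lower without the GC trend), 4 and 1 of them by at least 4-fold, with a median of 0.68. The receptor NOTCH3 stood at 15.4 and 17.7 CPM in Kyse150 and 305, 274 and 306 in TE11 (4.15, SE 0.11), NOTCH1 at 30.6 and 29.5 against 108, 97.1 and 108 CPM (1.79, SE 0.10), and the ligand DLL1 at 8.92 and 13 against 85, 85.7 and 76.3 CPM (2.91, SE 0.14). The target HES1 was higher (1.67, SE 0.16) and the glycosyltransferase MFNG lower (-3.92, SE 0.24). Of 30 tested Wnt genes 15 were called higher and 10 lower, 5 and 4 of them by at least 4-fold, with a median of 0.42 that became 0.00 without the GC trend. WNT5A, a ligand of the noncanonical branch, was at 0 in Kyse150 and 71.6, 85.9 and 77.9 CPM in TE11 (at least 357-fold higher), while its relative WNT5B was lower (-3.06, SE 0.24). The secreted antagonist DKK1 stood at 172 and 168 against 25.7, 27.2 and 28.2 CPM (-2.65, SE 0.09), and WNT4 at 0.719 and 0.745 against 39.9, 38.8 and 42.5 CPM (5.76, SE 0.45). ROR1 and WNT5A, a receptor and its ligand, were therefore each high in a different line.

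Mesenchymal and matrix genes did not follow 1 direction. Of 20 tested epithelial and mesenchymal identity genes 7 were called higher in TE11 and 11 lower, with a median of -0.52. CDH1, which encodes E-cadherin, was expressed in both lines at 432 and 438 against 322, 303 and 317 CPM (-0.47, SE 0.06), and EPCAM was higher in TE11 (0.77, SE 0.07). The mesenchymal filament VIM stood at 1.58 and 2.38 CPM in Kyse150 and 0.653, 0.368 and 0.44 in TE11 (-2.0, SE 0.56), and FN1 at 189 and 201 against 53.5, 53.8 and 55.4 CPM (-1.85, SE 0.08). ZEB1 (-1.26, SE 0.48), SNAI2 (-1.94, SE 0.13) and TWIST1 (-4.91, SE 0.69) were lower as well. The call of VIM was lost without Kyse150 control replicate 2 (-1.68; edgeR adjusted p = 0.053), and that of ZEB1 without replicate 1 (-1.06; edgeR adjusted p = 0.159). Against these, TGFBI, an adhesion protein, stood at 3.88 and 2.38 against 632, 591 and 597 CPM (7.58, SE 0.21), and SPARC, a matricellular protein, had 2 counts over the Kyse150 controls and 427, 426 and 417 CPM in TE11 (ratio 2890.4, 95% interval 799.99 to 23869).

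THBS1, a matrix protein that activates latent TGF-beta, was the most abundant gene called at least 4-fold lower in TE11, at 5708 and 5935 CPM in Kyse150 and 242, 244 and 264 in TE11 (-4.54, SE 0.06). Of 29 tested matrix and integrin genes 17 were called higher in TE11 and 10 lower, with a median of 0.91. ITGB6, an epithelial integrin chain, stood at 0.288 and 0.745 against 48.5, 57.8 and 54.2 CPM (6.67, SE 0.54), and COL5A2 at 3.45 and 0.447 against 164, 169 and 168 CPM (6.39, SE 0.34). Of 23 tested matrix proteases and inhibitors 9 were called higher and 13 lower, with a median of -0.85 (-0.56 without the GC trend). MMP14, the membrane-bound collagenase, stood at 275 and 310.1 against 11.6, 11.4 and 12.4 CPM (-4.63, SE 0.10), and TIMP2, which partners it, at 77.7 and 68.4 against 17.6, 18.1 and 18.1 CPM (-2.02, SE 0.11). TIMP3 was higher in TE11 (5.14, SE 0.46), and MMP1 was low in both lines (1.58 and 1.34 against 0.467, 0.46 and 0.352 CPM). Its call of -1.75, SE 0.62 was lost without Kyse150 control replicate 1 (-1.63; edgeR adjusted p = 0.0839).

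Genes that mark developmental position and germ line also set the lines apart. Of 39 HOX genes 23 were tested, 7 were called higher in TE11 and 12 lower, with a median of -0.83 (-0.54 without the GC trend). The 6 that were at least 4-fold higher were HOXA9 (3.02, SE 0.23), HOXC13 (2.02, SE 0.14), HOXC10 (3.58, SE 0.52), HOXC4, HOXC11 and HOXC12, and the last 3 of these had at most 3 counts over the Kyse150 controls. HOXB2 (-4.08, SE 0.43), HOXB4 (-3.54, SE 0.31) and HOXC8 (-2.42, SE 0.58) were at least 4-fold lower. Of 35 cancer-testis antigens 5 were tested, all MAGEA genes and all called lower. MAGEA4 stood at 688 and 668 CPM in Kyse150 and 19.2, 15.1 and 17.4 in TE11 (-5.3, SE 0.09), MAGEA6 at 149 and 149 against 4.57, 4.04 and 4.14 CPM (-5.13, SE 0.14) and MAGEA12 at 105 and 106 against 2.61, 3.22 and 2.82 CPM (-5.19, SE 0.17), while MAGEA3 differed less (-0.73, SE 0.08). Close copies make the split of reads among MAGEA genes uncertain.

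H19, an imprinted noncoding RNA, stood at 3.88 and 6.26 CPM in Kyse150 and 2769.9, 2447 and 2816 in TE11 (9.05, SE 0.17). In the IGF list, IGFBP3, which binds insulin-like growth factors, stood at 4.6 and 4.62 against 852, 753 and 789.8 CPM (7.43, SE 0.18), IGF2BP3 at 8.49 and 10.3 against 81.2, 94.3 and 91.3 CPM (3.25, SE 0.15), and IGF2BP1 had 3 counts in Kyse150 (ratio 152, 95% interval 51.8 to 737). Other large differences among genes well counted in all 5 libraries were CYP1B1, a hydroxylase of the aryl hydrocarbon receptor pathway (5.9 and 5.22 against 602, 648 and 619.9 CPM; 6.8, SE 0.16), the scavenger receptor OLR1 (6.79, SE 0.29), the aquaporin AQP3 (6.07, SE 0.30) and complement C3 (5.47 and 6.11 against 397, 367 and 364 CPM; 6.02, SE 0.16). All 4 were near the Kyse150 level in the libraries labelled TE11 knockdown, which held 5.03 and 5.27 CPM of CYP1B1 and 3.19 and 3.28 of C3.

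DNA replication genes were mostly lower in TE11, and mitotic genes went both ways. Of 40 DNA replication genes all were tested, 5 were called higher in TE11 (8 without the GC trend) and 27 lower, with a median of -0.45. The 3 at least 4-fold lower were POLA2 (-3.8, SE 0.15), MCM10 (-2.03, SE 0.10) and GINS2 (-2.01, SE 0.10), and MCM2 of the replicative helicase had a log2 difference of -0.43, SE 0.07. Of 40 mitotic genes 19 were called higher and 16 lower, with a median of 0.07: CENPE (3.66, SE 0.15), ASPM (2.85, SE 0.11) and NDC80 (2.71, SE 0.10) were at least 4-fold higher, and FOXM1, a driver of mitotic genes, was lower (-2.2, SE 0.08). MKI67, the proliferation marker, did not pass (-0.04, SE 0.07; edgeR adjusted p = 0.563). Of 46 tested oxidative phosphorylation genes 19 were called higher and 20 lower, and of 30 proteasome genes 9 and 15, with medians of -0.07 (-0.01 without the GC trend) and -0.32. The counts of lower genes include the mitotic genes NUSAP1 and PRC1 and the oxidative phosphorylation gene SDHA. These were low in every library of the TE11 table, as described further on. The plot of gene lists sets the shares called at least 4-fold beside those of all genes tested.

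**Figure D3:**
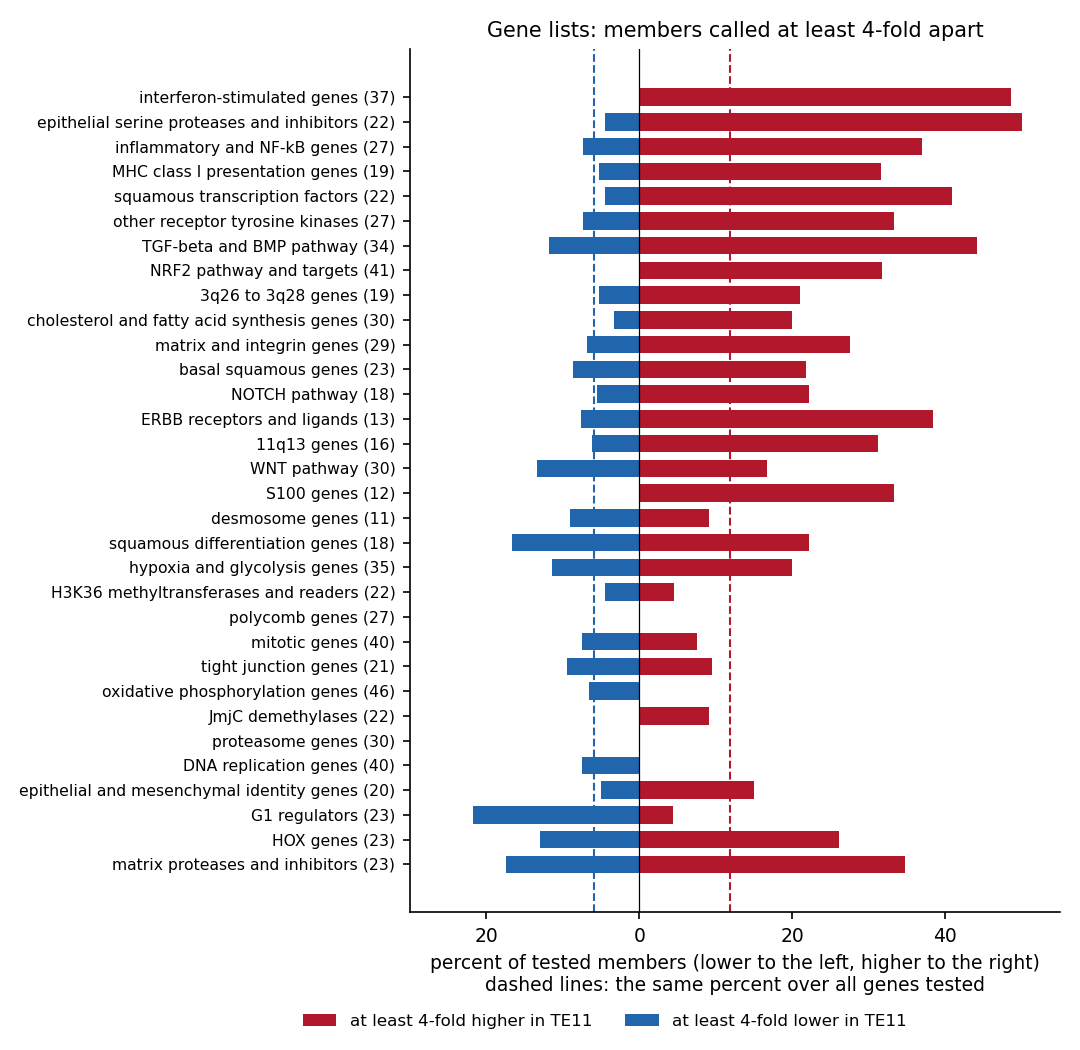
Percent of tested members called at least 4-fold higher in TE11 (red, to the right) or lower (blue, to the left) for the 32 lists with 10 or more tested members (number tested in brackets), ordered by median log2 difference. Dashed lines give the same percent over all genes tested, 11.9% and 5.98%. Interferon-stimulated genes reach 48.6%, serine proteases and inhibitors 11 of 22 and TGF-beta and BMP genes 44.1% on the right, and G1 regulators 21.7% on the left.

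Many genes were at or near 0 in the controls of 1 line. With 3 or fewer counts over the Kyse150 controls, 686 genes (459 protein-coding) were called higher in TE11, and with 3 or fewer over the TE11 controls 96 (47 protein-coding) were called lower. Of the 459, 425 were under 1 CPM also in both libraries labelled TE11 knockdown and 10 were at 5 CPM or more there. Of the 47, 22 were under 1 CPM there and 5 at 5 CPM or more. UBB, a ubiquitin gene that most cells express, had 2 counts over the Kyse150 controls and 567, 548 and 543 CPM in TE11 (ratio 3774, 95% interval 1044 to 31162), and stood at 0.368 and 0.234 CPM in the libraries labelled TE11 knockdown. STOM, which encodes the membrane protein stomatin, was at 0 in Kyse150 and 312, 314 and 313 CPM in TE11 (at least 1427-fold higher). CTSL, a lysosomal protease, had 1 count against 100.2, 108 and 105 CPM (ratio 1423, 95% interval 255 to 56209.6), MSLN, the surface protein mesothelin, 2 counts against 156, 143 and 141 CPM (ratio 999.7, 95% interval 277 to 8258), and the imprinted gene PEG10 3 counts against 120.2, 111 and 132 CPM (ratio 552, 95% interval 189 to 2679). STOM, CTSL, MSLN and PEG10 were all at most 0.351 CPM in the libraries labelled TE11 knockdown, which share the table of the TE11 controls.

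Other genes followed the table instead. SLC25A6, a mitochondrial ADP/ATP carrier, had 1 count over the Kyse150 controls, 321, 292 and 304 CPM in the TE11 controls and 232 and 233 in the libraries labelled TE11 knockdown. ALDOA stood at 1392 and 1454 CPM in Kyse150, 3.08, 2.21 and 2.2 in TE11 controls and 1.47 and 2.34 in the libraries labelled TE11 knockdown (log2 difference -9.15, SE 0.16). LDHB, a lactate dehydrogenase subunit, stood at 889 and 916 CPM in Kyse150, at 1.49, 1.93 and 1.58 in TE11 controls and at 2.82 and 0.819 in the libraries labelled TE11 knockdown. MATR3, SRCAP, ARPC1B, U2AF1, SPOUT1, NUSAP1, VARS2, PRC1 and SDHA were likewise expressed in Kyse150 and at most 17.9 CPM in every library of the TE11 table, with 78.8 to 340.5 CPM in the Kyse150 controls. NUSAP1 and PRC1 act on the mitotic spindle, and SDHA is a subunit of respiratory complex II. For such genes the line and the annotation of its table cannot be told apart. SLC38A5 and ZNF787 differ from them: SLC38A5, an amino acid transporter, stood at 152 and 162 CPM in Kyse150, 3.08, 2.21 and 1.5 in TE11 controls and 169.6 and 170.3 in the libraries labelled TE11 knockdown, and ZNF787 at 91.2 and 108 CPM in Kyse150, at 1.68, 1.47 and 1.5 in TE11 controls and at 57.3 and 59.9 in those knockdown-labelled libraries. Within the TE11 table both genes thus reached these levels only in the libraries labelled TE11 knockdown, and the cause was not tested.

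**Figure D4:**
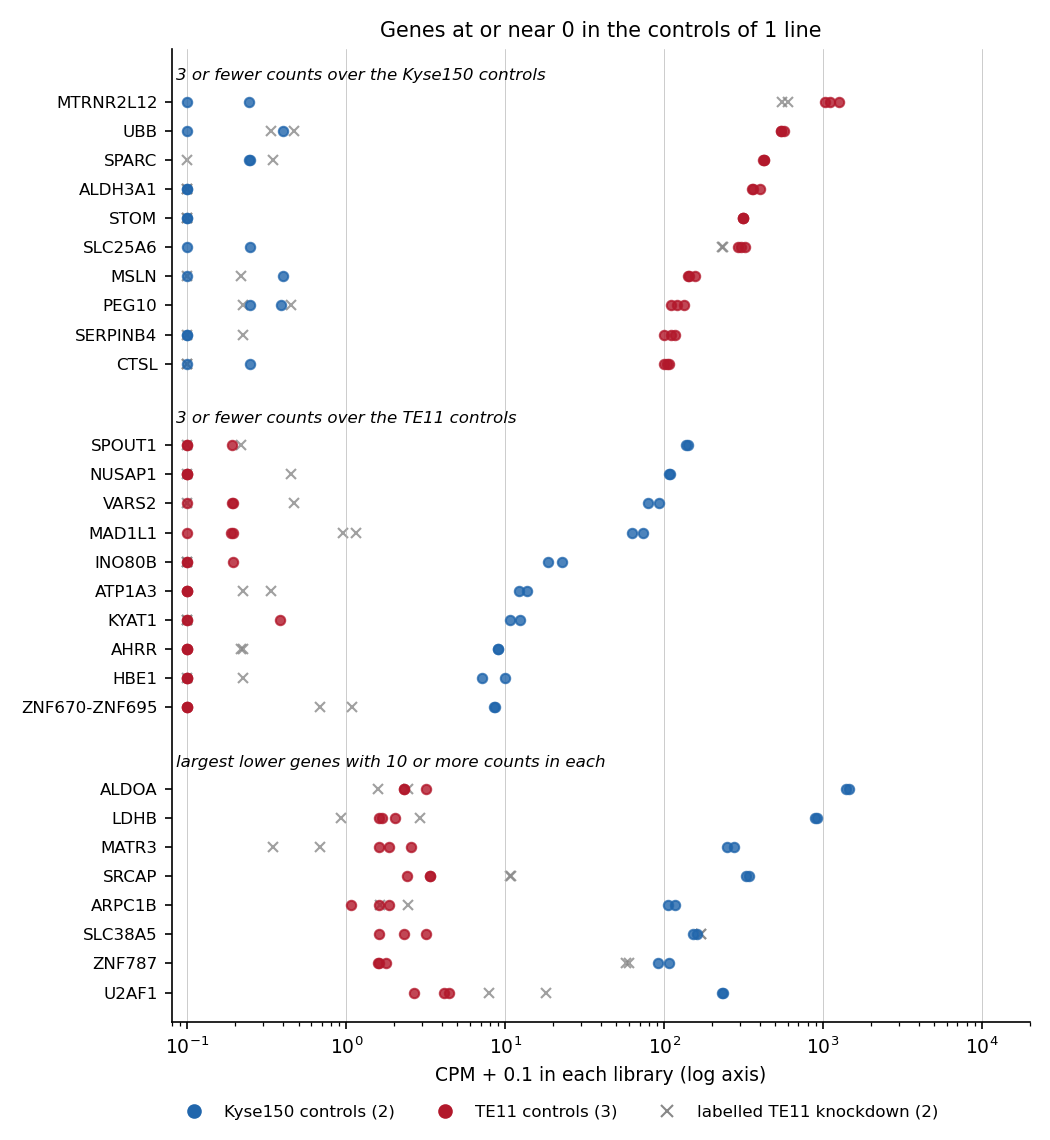
CPM plus 0.1 (log axis) in each library for 10 genes near 0 in Kyse150, 10 near 0 in TE11 and the 8 largest lower genes with 10 or more counts in each of the 5 controls. Blue and red points are the Kyse150 and TE11 controls and grey crosses the libraries labelled TE11 knockdown. Grey crosses lie with the red points for SLC25A6, MTRNR2L12, ALDOA and LDHB, and with the blue points for UBB, STOM, SLC38A5 and ZNF787.

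Nuclear copies of mitochondrial genes are a further difference of this kind. The 15 such pseudogenes among the joined genes summed to 677 to 692 CPM in the Kyse150 controls and 46188 to 48775 CPM in the TE11 controls, with 13338 to 13479 CPM in the libraries labelled TE11 knockdown. MTCO1P12 alone stood at 26.3 and 25 CPM in Kyse150 and 25985, 24990.4 and 24797 in TE11. The mitochondrial protein-coding genes hold 0 counts in the TE11 table. MTRNR2L12, a protein-coding copy of mitochondrial RNA, had 1 count in Kyse150 and 1029.5, 1253 and 1114 CPM in TE11.

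Genes left out by the requirement of a count in each table include some with high levels. At 0 in every Kyse150 library but at 5 CPM or above in TE11 controls were 297 genes, 245 of them protein-coding, of which 192 were at 0 also in both libraries labelled TE11 knockdown and 15 at 5 CPM or more in both. The other way round there were 22, 12 of them protein-coding. The TE11 table holds more and deeper libraries, and the part of depth in these counts of genes was not tested. Among the 297 were DHCR7, AKR1C2, AKR1C1 and SERPINB3, a squamous cell carcinoma antigen (194, 218 and 201 CPM). CLDN1, the main claudin of squamous epithelium, stood at 46.5, 51.7 and 52.3 CPM. The surface protein gene CD99 stood at 64.3, 64 and 61.3 CPM in TE11 controls and 47 and 49.3 in the libraries labelled TE11 knockdown. The methyltransferase gene KMT2B stood at 59.1, 60.9 and 72.8 and, in those libraries, at 49.1 and 50.8 CPM, so both genes were present throughout 1 table and absent from the counts of the other. No test was made for these genes.

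Differences were also uneven along the chromosomes. The median log2 difference of tested protein-coding genes was highest on chromosome 4 (0.69, 427 genes), chromosome 14 (0.62, 409 genes) and chromosome 6 (0.62, 622 genes), and lowest on chromosome 11 (-0.50, 694 genes). Without the GC trend these became 0.36, 0.54, 0.53 and -0.42. Chromosomes 16 and 19 both had a median of -0.45, which moved to -0.23 and -0.19. The medians of chromosomes 6, 14 and 11 thus moved less than those of chromosomes 4, 16 and 19 when base composition was taken out.

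**Figure D5:**
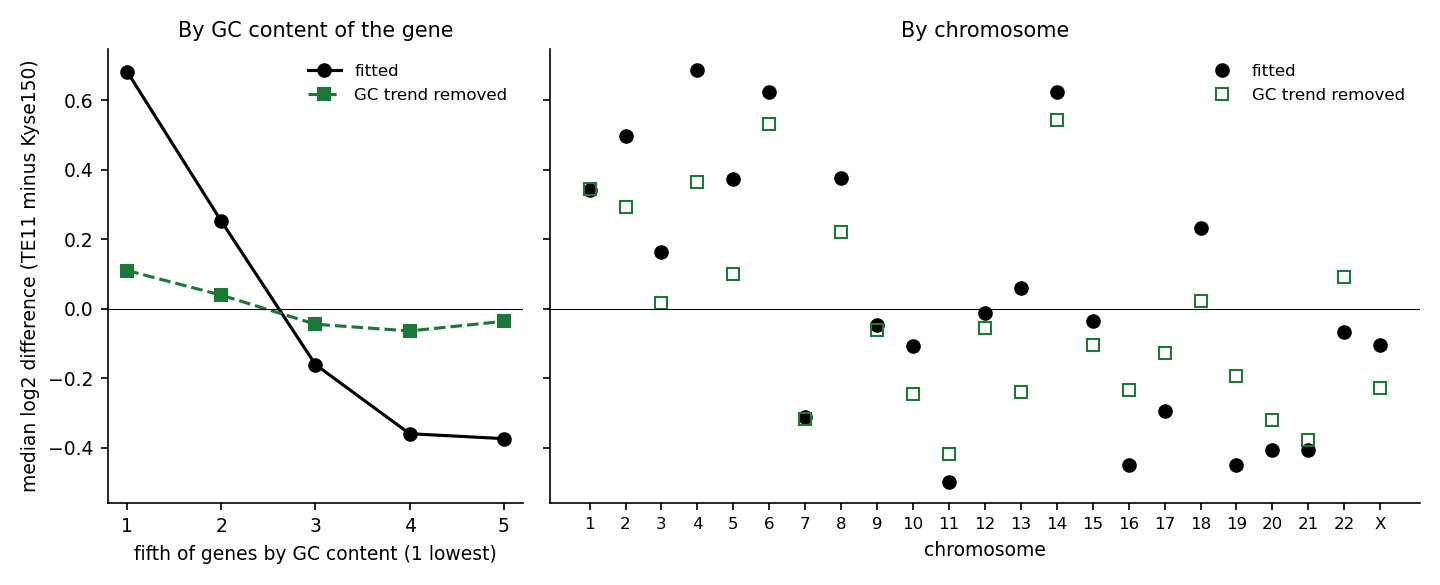
Median log2 difference (TE11 minus Kyse150 controls) of tested protein-coding genes in 5 bins of GC content (left) and by chromosome (right), as fitted (black) and with the GC trend of each library removed (green squares). The left line falls from 0.68 to -0.37 and is nearly flat after removal, and chromosomes 6, 14 and 11 stay near 0.53, 0.54 and -0.42.

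At a finer scale, medians were taken over every run of 20 neighbouring tested protein-coding genes. Of these runs 8.17% had a median log2 difference of 1 or more and 3.26% of -1 or less, and neighbouring runs share genes. The highest was on chromosome 4 from WWC2 to TLR3 (chr4:183099293-186088069), with a median of 2.36 (1.92 without the GC trend) and 18 of 20 genes called higher. Other high runs lay on chromosome 14 from PSMC6 to KTN1 (chr14:52707172-55701526; 2.21, and 1.57), with 19 of 20 called higher, and on chromosome 18 from USP14 to ANKRD12 (chr18:158383-9285985; 2.13, and 2.1), with 17. The lowest was on chromosome 11 from TAGLN to BCL9L (chr11:117199321-118925608; -1.75, and -1.67), with 16 of 20 called lower. On chromosome 19 the run from ZNF329 to MZF1 (chr19:58126252-58573575; -1.65, and -1.49), made up largely of zinc finger genes, had 19 of 20 called lower and none higher. Positions are those of GENCODE 29 on GRCh38. Gene copy number, methylation and annotation were not measured here, and their part in these runs was not tested.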

How the data were processed

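Polyadenylated RNA of 9 libraries was sequenced, and the deposited tables hold whole-number read counts per Ensembl gene, 1 table per line, made by the authors. Per the submitters' processing notes the tools were HISAT2 2.1.0, HTSeq 0.9.1, bcl2fastq 2.19 and DESeq2. The notes list 2 builds, GRCh38.p13 and GRCh37.p13, and assign neither to a table. For the strand setting of the counting, nothing is stated. Reads with no feature made up 42.3% to 43.8% of each control library and were left out. Multiply aligned reads made up 6.58% to 6.59% in Kyse150 and 2.94% to 3.32% in TE11 controls. Counts of genes that overlap others or have close copies are therefore uncertain, and 45.2% of tested genes share exon positions with another gene.

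Tables were joined by Ensembl identifier, without mitochondrial genes. edgeR 4.0.16 (R 4.3.3) fitted the 5 control libraries with TMM scaling, a minimum count of 10 and a robust quasi-likelihood test on 3 residual degrees of freedom. Alternatives used DESeq2 1.42.0 and other scalings, filters and library sets. On simulated counts 94% of genes changed 2-fold were recovered, and 5.53% of calls were false. That simulation drew all libraries from shared means and changed a small part of 14817 genes, none with low counts, equally in each direction. In the data 78.4% of genes were called and large differences were more often higher in TE11. These rates may therefore not hold for the comparison itself. Symbols, positions and biotypes come from GENCODE 29. Replicate numbers do not pair the lines.

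The members and lists were chosen with earlier results of these data known. Named genes are KDM2A, the squamous markers, the 10 most abundant called protein-coding genes per direction with 3 or fewer counts in the other line, the 8 largest differences per direction with 10 or more counts in each library, and in each list the first member and up to 6 called at 4-fold per direction. Not all of these are printed, and some genes are not reported here. Chosen after their values were seen were AREG, BMP2, BMP4, BMP7, EPCAM, ERBB2, FADD, FGFR1, FGFR3, FN1, GCLM, HBEGF, HES1, HMOX1, ID3, IFI6, IFIT1, ISG15, KEAP1, KRT8, KRT18, LIF, MAGEA3, MKI67, MTAP, MTF1, NQO1, NRG1, OAS1, OAS3, PIK3CA, PKP2, PKP3, PRKCI, SNAI2, SREBF1, SREBF2, TXNRD1, USP18, VIM, ZEB1, the genes absent from 1 table and the mitochondrial copies.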

Additional observations from a re-analysis of the deposited data

How the results depend on the processing

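Counts of called genes stayed within 1.5 times under DESeq2 (5689 higher, 5355 lower), other scalings, no filter, all 9 libraries in the fit and the replicate block (5748 and 5231). Leaving out 1 library at a time gave 5739 to 6078 higher, 5165 to 5610 lower, 1657 to 1932 at least 4-fold higher and 867 to 882 at least 4-fold lower. Larger moves came with stricter filters on genes. Requiring 10 or more counts in each control library leaves out genes near 0 in 1 line. It cut the tested genes from 15225 to 12326. Of the 12326, 609 were at least 4-fold higher and 391 lower. Without genes whose exons overlap another gene, an alternative chosen after seeing the data, 8342 were tested. Of the 8342, 3453 were higher, 3145 lower, 1040 at least 4-fold higher and 498 lower. Removing the GC trend, also chosen after seeing the data, turned the sign of LRP5 (0.0201), ERBB2 (0.23), MTAP (-0.0092) and OAS3 (0.26); the cause was not tested. The 2 control groups share only replicate numbers 1 and 2, and the deviations of the same numbers had a correlation of -0.384 across 6200 genes. Of 314 tested genes named in the text or by the naming rule, 294 kept their direction and their side of the threshold in every alternative that gave them a value; other members of the lists were not counted here. MMP1, TGFB3, SYP, ZEB1, VIM and S100A1 each lost their call when 1 library was left out, and the part of depth in this was not tested.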
